A study of Mus musculus with 3 samples.

Results

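The MAP kinase phosphatases are the dual-specificity phosphatases that carry a MAP kinase-binding domain, and 9 of their genes are described here: Dusp1, Dusp2, Dusp4, Dusp5, Dusp6, Dusp7, Dusp8, Dusp10 and Dusp16. They were chosen by gene symbol from the 55536 annotated genes of the tables, of which 22028 are protein coding. The rule uses no measured value, but the members were chosen with earlier results of these data known. Total RNA depleted of ribosomal RNA was sequenced from the chromatin fraction of primary macrophages, grown from the bone marrow of C57BL/6J mice and kept for 20 min in 100 ng/ml lipid A. Lipid A, the membrane anchor of bacterial lipopolysaccharide, is the ligand of the receptor TLR4, and chromatin-fraction RNA is enriched for transcripts that are still being made or are not yet released from the gene. The 3 libraries form 1 group and are numbered biological replicates 1, 2 and 3, made from 1000, 250 and 500 ng of RNA. No untreated cells were analysed here, so every value below is a level after lipid A and not an induction. The labels list a biosample for each library and 1 donor entry for all of them, and do not say whether the cells came from separate animals, so the spread between libraries may be technical. Sex and age were not collected.

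MAP kinases are switched on when a threonine and a tyrosine in their activation loop are phosphorylated, and the MAP kinase phosphatases remove both phosphates. Dusp1, Dusp2, Dusp4 and Dusp5 encode nuclear enzymes that are transcribed within minutes to hours of a stimulus and so form a negative feedback. Dusp6 and Dusp7 encode cytoplasmic enzymes that act on ERK, and Dusp8, Dusp10 and Dusp16 encode enzymes that prefer the stress kinases JNK and p38. In macrophages the family is known above all for limiting the MAP kinase signal downstream of Toll-like receptors and with it the output of inflammatory cytokines.

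The libraries held 16317439, 16245280 and 12439931 expected counts in replicates 1, 2 and 3, where an expected count is the number of reads an estimator assigns to a gene. Where a gene has a count of 0, as many as 3 counts are compatible with it, which is 0.184, 0.185 and 0.241 CPM (counts per library total, rescaled), and such limits cover counting error only. All 8 macrophage markers lay at or above 1 TPM in every library, with a summed level of 495 to 689 TPM. TPM, a transcript abundance scaled to the same total in each library, compares genes per length within a library. In the gene tables, none of the 24 markers of 7 other cell types reached 1 TPM in every library. The highest summed level of such a list there was 1.34 TPM, that of dendritic cells. In the second set of tables, introduced below as the kallisto tables, the highest mean of those markers was 2.83 TPM, for Cd8a. The lowest mean of a macrophage marker in that set was 22.6 TPM, for Itgam. Small nucleolar RNAs took 55.7%, 46.4% and 40.4% of TPM in replicates 1, 2 and 3, which leaves the remainder to all other genes.

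Together the 9 genes had 340, 245 and 567 TPM in replicates 1, 2 and 3, and 0.0701%, 0.0419% and 0.0769% of the expected counts. Dusp1 and Dusp2, both nuclear feedback enzymes, held 93.3%, 90.8% and 94.3% of that summed TPM. The median of the 9 genes was 2.97 ± 1.01 TPM, against 0.410 ± 0.157 TPM for all protein-coding genes (SD, n = 3 libraries). Of the 9 genes, 6 were at or above 1 TPM in every library, against 8942 of 22028 protein-coding genes, or 40.6%. Those were the 4 nuclear enzymes, Dusp7 and Dusp16. In bulk RNA such as this, fewer cells making a transcript and less of it per cell cannot be told apart.

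**Figure D1:**
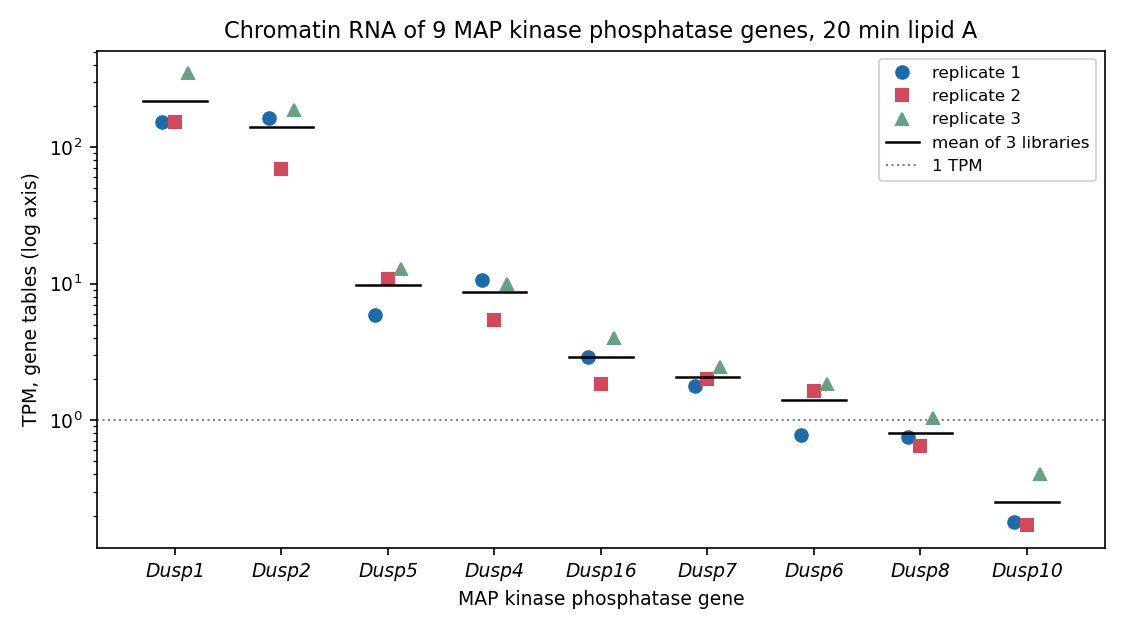
TPM of each MAP kinase phosphatase gene in the 3 libraries (log axis), ordered by mean TPM, with a bar at the mean and a dotted line at 1 TPM. Dusp1 and Dusp2 lie between 69.1 and 347 TPM, above every value of the other 7 genes, which lie between 0.17 and 12.8 TPM.

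Dusp1 encodes a phosphatase of p38, JNK and ERK and is the member best known as a brake on Toll-like receptor signalling. It lies on chromosome 17, minus strand, at chr17:26505590-26562128 of GRCm38, and its main coding isoform, Dusp1-202, spans 2930 bp of that in 4 exons. Its level was 153, 153 and 347 TPM in replicates 1, 2 and 3, with a mean of 218 ± 112 TPM (SD, n = 3). Replicates 1 and 2 were alike and replicate 3 was higher, and the mean ranked 77 of the 22028 protein-coding genes. The values rest on 5946, 4473 and 6317 expected counts, so counting error was small beside the spread between libraries. The coding gene Ergic1 (chr17:26561489-26656934, plus strand) overlaps the end of the annotated span of Dusp1, outside Dusp1-202. Ergic1 had 345, 341 and 304 expected counts, and the sense intronic AC122252.1 within the span had 1, 0 and 4. Use of strand is not stated, so reads in these overlaps cannot be told apart. As a share of the summed TPM of the 9 genes, Dusp1 held 44.9%, 62.6% and 61.1%. The window before its start site, from base -250 to base -51 (RefSeq, GRCm38.p6, chr17:26508523-26508722, minus strand), is shown because it holds a full cyclic AMP response element, a site bound by CREB family factors, and 1 more copy of its core. Capitals mark those matches, TGACGTCA and TGACGT.
Dusp1 promoter: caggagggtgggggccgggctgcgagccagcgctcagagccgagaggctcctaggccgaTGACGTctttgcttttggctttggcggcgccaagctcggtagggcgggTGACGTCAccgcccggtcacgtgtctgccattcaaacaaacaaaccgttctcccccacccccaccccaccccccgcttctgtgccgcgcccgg

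Nearly all Dusp1 RNA on chromatin was assigned to isoforms that keep an intron. Dusp1-203, which keeps intron 2, had 76.1, 77.9 and 161 TPM in replicates 1, 2 and 3. Dusp1-204, which keeps intron 3, had 74.0, 71.0 and 175 TPM, and these isoforms were therefore about equal in TPM in each library. Counted in reads they were not equal. Dusp1-203, of 2313 bases, held 75.0% ± 1.73 of the expected counts of Dusp1. Dusp1-204, of 839 bases, held 21.7% ± 1.56 (SD, n = 3 for each). The fully spliced coding isoform Dusp1-202 had 2.38, 4.29 and 10.7 TPM, from 119, 159 and 259 expected counts. Isoforms annotated as noncoding held 98.4%, 97.1% and 96.9% of the TPM of Dusp1, a mean of 97.5% ± 0.827 (SD, n = 3). The background was 7454 protein-coding genes with such isoforms, a set that left out Dusp6, which was below 1 TPM in replicate 1. Among those genes the median share was 48.1% ± 1.58 (SD, n = 3), and the share of Dusp1 stood at percentile 99.6. The second set of transcript tables, estimated from the reads without an alignment and called the kallisto tables here for their column layout, gave 94.0% ± 0.756 (SD, n = 3).

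The introns concerned are short and have the usual GT and AG ends. Intron 2 of Dusp1 (chr17:26507205-26507573, 369 bp) was kept in 49.9%, 50.8% and 46.4% of the isoform TPM in replicates 1, 2 and 3. Intron 3 (chr17:26506651-26506984, 334 bp) was kept in 48.5%, 46.3% and 50.5%. No annotated isoform of Dusp1 keeps both introns and none keeps intron 1, so RNA with that structure has no isoform of its own to be assigned to, and these shares describe the split over the annotated isoforms. The sequences below show 30 bases on each side of the exon borders that tell kept from removed introns, read 5′ to 3′ on the coding strand from the GENCODE M21 transcripts, with intron bases in capitals.
Dusp1 intron 2, kept, 5′ border: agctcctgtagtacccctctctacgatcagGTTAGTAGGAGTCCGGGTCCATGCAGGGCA
Dusp1 intron 2, kept, 3′ border: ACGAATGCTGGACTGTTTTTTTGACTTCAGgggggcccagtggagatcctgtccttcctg
Dusp1 intron 2, spliced: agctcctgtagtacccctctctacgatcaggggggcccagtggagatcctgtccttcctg
Dusp1 intron 3, kept, 5′ border: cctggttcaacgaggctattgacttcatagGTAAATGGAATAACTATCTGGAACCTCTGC
Dusp1 intron 3, kept, 3′ border: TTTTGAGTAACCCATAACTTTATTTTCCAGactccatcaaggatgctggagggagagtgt
Dusp1 intron 3, spliced: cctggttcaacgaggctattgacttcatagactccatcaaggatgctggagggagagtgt

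Dusp2 encodes a nuclear phosphatase first described in activated lymphocytes that acts on ERK and p38. It is a compact gene of 2218 bp with 4 exons on chromosome 2, plus strand, at chr2:127336159-127338376. Its level was 164, 69.1 and 188 TPM in replicates 1, 2 and 3, with a mean of 141 ± 62.9 TPM (SD, n = 3), rank 172 of the protein-coding genes. Replicate 2 was the low one, at 1196 expected counts against 3850 in replicate 1. The difference between Dusp1 and Dusp2, on the log2 TPM scale, was -0.11, 1.15 and 0.88 in replicates 1, 2 and 3, so Dusp2 was the higher of the pair in replicate 1 and their ranges overlapped. With 3 libraries the smallest p an exact sign-flip test allows is 0.25, and none was used to rank the genes.

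For Dusp2 the isoform with a kept intron again held the larger share of the TPM. Dusp2-202, which keeps intron 2, had 112, 44.6 and 121 TPM in replicates 1, 2 and 3. The coding isoform Dusp2-201 had 52.8, 24.6 and 67.1 TPM. The kept share was 67.9%, 64.5% and 64.3%, a mean of 65.6% ± 2.04 (SD, n = 3), and the kallisto tables gave 64.5% ± 3.11. On the TPM scale it was higher in each library than the kept share of either Dusp1 intron. It was lower than the noncoding share of Dusp1, which sums both of its kept-intron isoforms. It stood at percentile 76.8 of the same 7454 genes. Counted in reads rather than in molecules scaled for length, the share was 42.0% ± 3.14, since Dusp2-202 is 756 bases long and Dusp2-201 is 1617. The borders of intron 2 (chr2:127336899-127337248, 350 bp) are given in the same way, intron bases in capitals.
Dusp2 intron 2, kept, 5′ border: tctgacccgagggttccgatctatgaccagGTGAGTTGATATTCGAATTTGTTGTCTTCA
Dusp2 intron 2, kept, 3′ border: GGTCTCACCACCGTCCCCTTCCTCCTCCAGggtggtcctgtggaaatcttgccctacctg
Dusp2 intron 2, spliced: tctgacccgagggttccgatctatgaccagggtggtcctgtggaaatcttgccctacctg

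**Figure D2:**
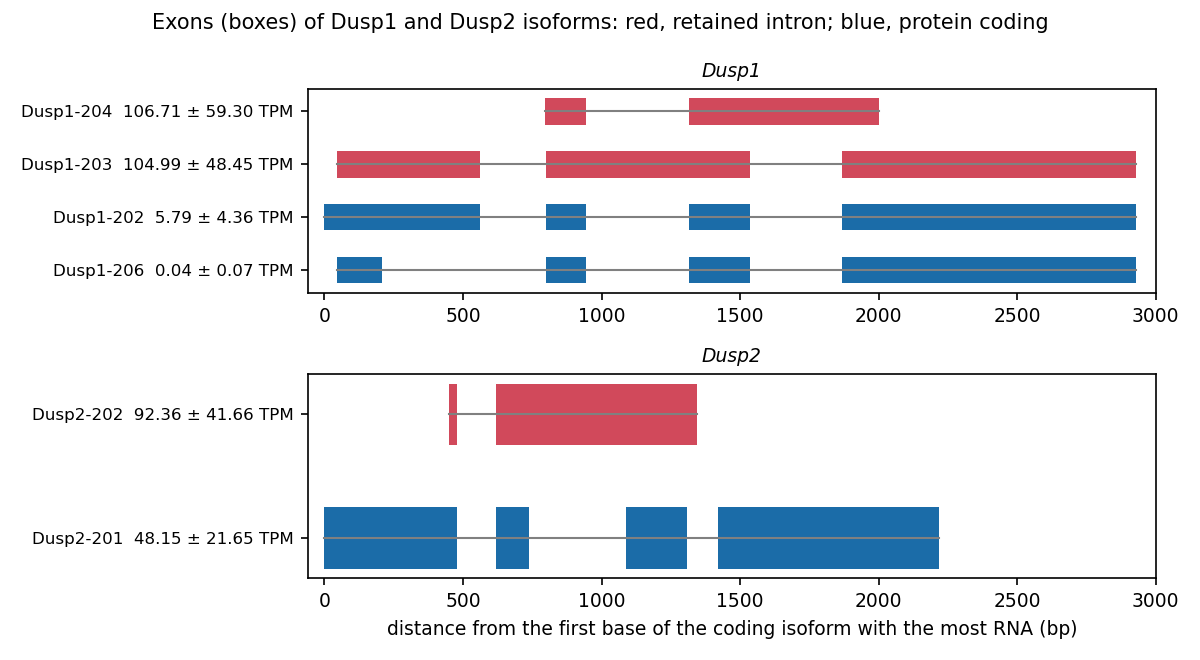
Exons of the Dusp1 and Dusp2 isoforms that received RNA in the gene-table set, drawn to scale in bp from the first base of the main coding isoform in the direction of transcription, each with its mean TPM ± SD (n = 3). The isoforms with a kept intron (red) had 92.4 to 107 TPM, against 48.1 TPM for Dusp2-201 and 5.79 TPM for Dusp1-202 (blue).

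When only isoforms annotated as protein coding were summed, a comparison chosen after the values were seen, the order of the leading members changed. Dusp2 came first with 48.1 ± 21.6 TPM, Dusp5 had 9.83 ± 3.53 TPM, Dusp4 had 8.65 ± 2.83 TPM and Dusp1 had 5.83 ± 4.34 TPM (SD, n = 3 for each). Dusp1 thus moved to position 4 of 9, and its range of 2.38 to 10.7 TPM overlapped those of Dusp4 and Dusp5. Dusp4, Dusp5, Dusp8 and Dusp10 have no annotated noncoding isoform, so exon reads of their unspliced RNA counted as coding and intron reads were not counted. The order therefore depends in part on the annotation and does not show which gene had more spliced RNA. In the kallisto tables Dusp2 also came first, with 57.4 ± 27.4 TPM, and Dusp1 had 14.1 ± 7.29 TPM, close to Dusp5 at 13.9 ± 3.86 TPM. The lead of Dusp1 thus lay in TPM assigned to isoforms with a kept intron. That split over annotated isoforms is an estimate that was not tested, and RNA already released from chromatin was not analysed here.

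Dusp4 and Dusp5 formed a middle tier among the nuclear enzymes, well below Dusp1 and Dusp2 in every library in TPM summed over all isoforms. Dusp4, which encodes a phosphatase of ERK and JNK, lies at chr8:34807297-34819894, plus strand, and had 10.6, 5.40 and 9.97 TPM in replicates 1, 2 and 3. Dusp5, which encodes a phosphatase restricted to ERK, lies at chr19:53529109-53542431, plus strand, and had 5.92, 10.8 and 12.8 TPM. The genes ran in opposite directions across replicates 1 and 2, with Dusp4 high where Dusp5 was low. Their means, 9.83 ± 3.53 TPM for Dusp5 and 8.65 ± 2.83 TPM for Dusp4, did not differ beyond the spread (SD, n = 3 for each). Dusp4 rested on 750, 286 and 345 expected counts and Dusp5 on 376, 510 and 395. Each has 1 annotated isoform, which is coding, so no intron share can be given for them. The antisense gene AC137853.2 overlaps the start of Dusp5 and had 1.14, 3.02 and 3.87 expected counts. No source used here states the use of strand, so its reads and those of Dusp5 cannot be told apart.

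The window before the Dusp5 start site (RefSeq, GRCm38.p6, chr19:53528895-53529094, plus strand, base -250 to base -51) is shown because Dusp5 was the only one of the 8 members with a window that held the CArG box, the site of serum response factor. It held 2 copies side by side, and a core of the cyclic AMP response element on the reverse strand; capitals mark the 3 matches.
Dusp5 promoter: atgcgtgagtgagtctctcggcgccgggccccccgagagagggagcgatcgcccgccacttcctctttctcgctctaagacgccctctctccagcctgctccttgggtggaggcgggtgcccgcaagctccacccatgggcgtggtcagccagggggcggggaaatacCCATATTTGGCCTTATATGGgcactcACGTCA

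Dusp6 and Dusp7, the cytoplasmic ERK phosphatases, were low on chromatin. Dusp6 (chr10:99263231-99267489, plus strand), a feedback target of ERK in many tissues, had 0.78, 1.63 and 1.83 TPM in replicates 1, 2 and 3, from 39, 59 and 52 expected counts. Replicate 1 was below 1 TPM, and the exact 95% Poisson interval of its count, 27.7 to 53.3, overlapped those of the other counts. Dusp7 (chr9:106368632-106375724, plus strand) had 1.78, 2.00 and 2.45 TPM from 97, 73 and 68 expected counts, the narrowest spread of the 9 genes relative to the mean of 2.08 ± 0.342 TPM (SD, n = 3). Dusp7 was above Dusp6 in 3 of 3 libraries, but their ranges overlapped. The X-linked relative Dusp9, which is outside the 9 genes and was looked up after the other values were seen, had 1, 3 and 0 expected counts.

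The level of Dusp7 depended on which tables were read. The kallisto tables gave it 13.6, 9.00 and 11.7 TPM, a mean 5.52 times that of the gene tables, the largest such ratio among the 9 genes. There, 74.4% ± 5.92 of its TPM fell on noncoding isoforms, against 2.62% ± 4.54 in the gene-table set (SD, n = 3). Most of that was Dusp7-202, an isoform of 270 bases with 8.57 TPM in the kallisto tables and 0 TPM in the gene-table set. Summed over coding isoforms, Dusp7 had 2.89 ± 0.687 TPM in the kallisto tables and 2.03 ± 0.406 TPM in the gene-table set, which overlap. Dusp6 changed in the same way, with a noncoding share of 65.2% ± 1.88 in the kallisto tables and 32.8% ± 9.12 in the gene-table set (SD, n = 3).

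The JNK and p38 phosphatases spanned the lowest tiers. Dusp16 (chr6:134715468-134792625, minus strand), which encodes a phosphatase that moves between cytoplasm and nucleus, had 2.89, 1.83 and 4.02 TPM in replicates 1, 2 and 3, from 271, 145 and 180 expected counts. Dusp8 (chr7:142079490-142095843, minus strand) had 0.75, 0.65 and 1.03 TPM, from 96, 63 and 65 expected counts. Dusp10 (chr1:184013302-184075636, plus strand), which limits JNK and p38 in immune cells, had 0.18, 0.17 and 0.40 TPM, from 13, 9 and 14 expected counts. Dusp10 was thus detected in every library and was below 1 TPM in all 3, and its mean of 0.25 ± 0.13 TPM (SD, n = 3) lay at percentile 47.1 of the protein-coding genes. Dusp16 was at percentile 65.3 and Dusp8 at percentile 54.0. Inside Dusp16 the antisense gene Gm36328 had 6, 5 and 6 expected counts, few beside those of Dusp16.

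The isoforms of Dusp16 also split differently in each set of tables. In the gene-table set, 91.3% ± 7.61 of its TPM lay on the coding isoforms Dusp16-201, Dusp16-202 and Dusp16-204, with Dusp16-204 at 46.7% ± 1.95 (SD, n = 3). In the kallisto tables Dusp16-204 held 29.0% ± 0.119 and the short noncoding Dusp16-205 held 28.5% ± 5.88, which was at 0 in the gene-table set. Dusp8 and Dusp10 have no annotated noncoding isoform.

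**Figure D3:**
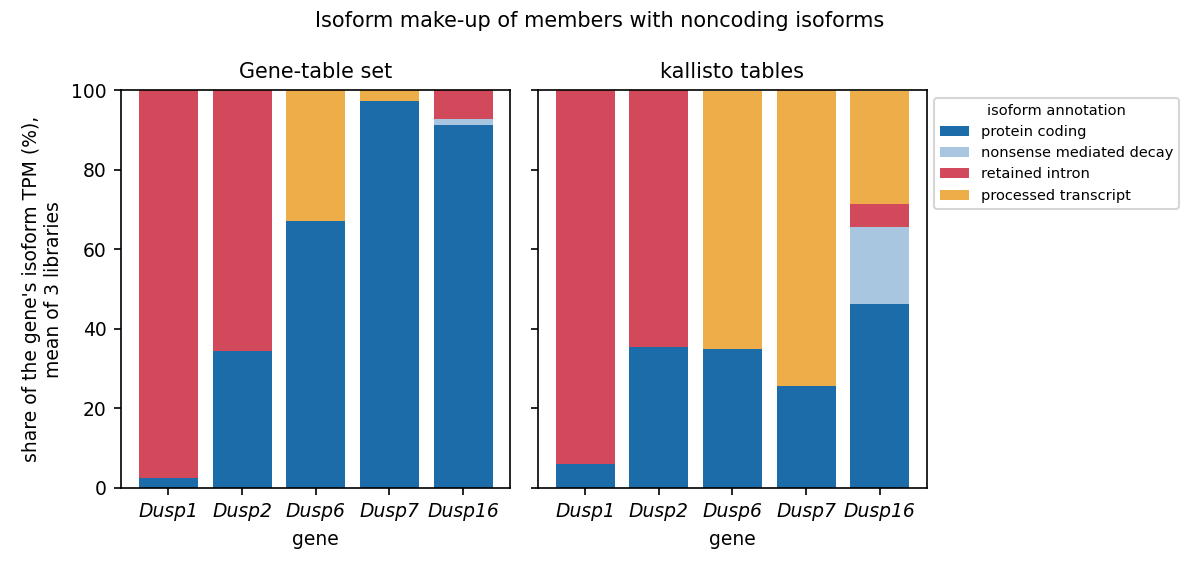
Mean share of each gene's isoform TPM (percent, 3 libraries) by annotation class for the 5 members with noncoding isoforms, in the gene-table set (left) and the kallisto tables (right). Retained-intron isoforms dominate Dusp1 and Dusp2 in both panels, while processed transcripts take larger shares of Dusp6, Dusp7 and Dusp16 in the kallisto tables than in the gene-table set.

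The Dusp8 window (RefSeq, GRCm38.p6, chr7:142095335-142095534, minus strand, base -250 to base -51) is shown for comparison with that of Dusp1, since it holds 2 full cyclic AMP response elements, in capitals, before a gene at 0.810 ± 0.197 TPM (SD, n = 3).
Dusp8 promoter: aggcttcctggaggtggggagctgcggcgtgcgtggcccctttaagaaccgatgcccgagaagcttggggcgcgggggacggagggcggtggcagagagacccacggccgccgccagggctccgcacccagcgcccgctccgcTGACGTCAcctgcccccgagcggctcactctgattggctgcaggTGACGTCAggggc
Over windows of 300 bases, from 250 before to 50 after the RefSeq start site, 8 of the 9 members could be matched, and 32544 promoters served as the background. Both strands were searched. The element TGACGTCA was in Dusp1 and Dusp8, 2 of 8, against 1.80% of all windows, and its core TGACGT, which each full element contains, was in Dusp1, Dusp5 and Dusp8, against 7.55%. The CArG box was in Dusp5, against 1.64% of windows, and the E-box CACGTG was in Dusp1 and Dusp2, against 7.17%. The GC box GGGCGG was in 7 of 8, against 35.9%. An NF-kB site (8.49% of windows), the AP-1 site TGANTCA (7.79%), the TATA box TATAAA (13.6%) and the ETS site CCGGAAG (8.91%) were found in none of the 8. A match is a string of letters and not a measured site, and members with the same match had levels as far apart as those of Dusp1 and Dusp8.

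By mean TPM the order was Dusp1, Dusp2, Dusp5, Dusp4, Dusp16, Dusp7, Dusp6, Dusp8 and Dusp10. Of the 36 pairs of members, 33 had the same gene higher in 3 of 3 libraries and 30 had ranges that did not overlap. The steps with no overlap between neighbours were Dusp2 to Dusp5, at 3.78 ± 1.06 on the log2 TPM scale, Dusp4 to Dusp16, at 1.58 ± 0.28, and Dusp8 to Dusp10, at 1.79 ± 0.37 (SD, n = 3 for each). In the gene tables those steps divide the family into a pair at the top, a pair in the middle, the 4 genes Dusp16, Dusp7, Dusp6 and Dusp8 between 0.65 and 4.02 TPM, and Dusp10. The pair at the top holds for TPM summed over all isoforms, where intron reads count only for members with an isoform that keeps the intron. Over coding isoforms only, Dusp2 stayed highest at 48.1 ± 21.6 TPM. Dusp1 had 5.83 ± 4.34 TPM there, and its range overlapped those of Dusp4 and Dusp5 (SD, n = 3 for each). Within each tier, neighbours did not differ beyond their ranges. Dusp16 was above Dusp7 in 2 of 3 libraries in the gene tables and in 0 of 3 in the kallisto tables. The step from Dusp4 to Dusp16 was 0.70 in the kallisto tables, where their ranges overlapped, at 6.27 to 15.1 TPM for Dusp4 and 4.11 to 9.46 TPM for Dusp16. Dusp7, at a mean of 11.5 TPM there, was level with Dusp4 at 11.6 TPM, so the border below the middle pair held in the gene tables only.

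**Figure D4:**
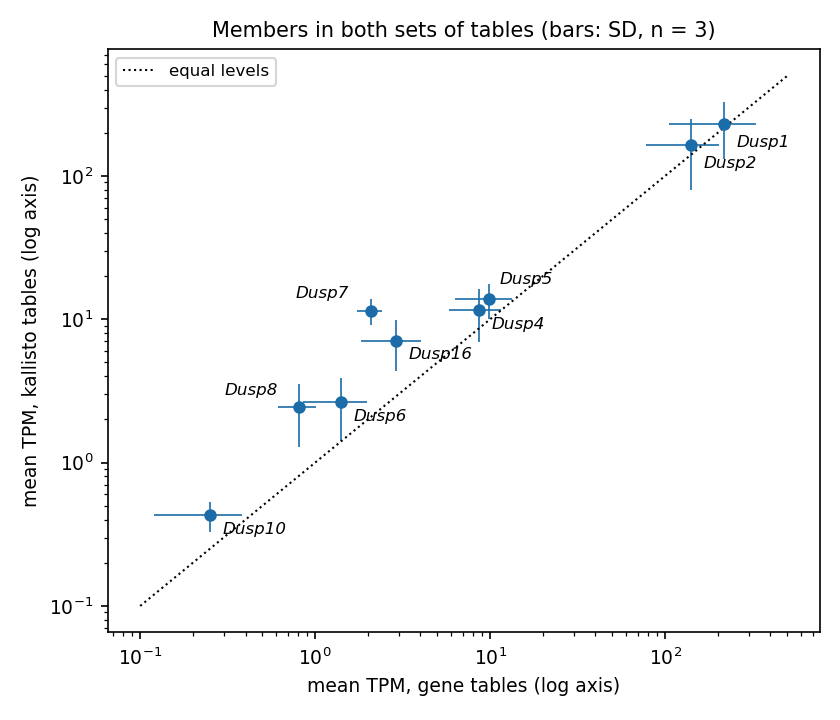
Mean TPM of each member in the gene tables (horizontal) and the kallisto tables (vertical), both on log axes, with bars for the SD over 3 libraries and a dotted line for equal levels. All 9 points lie above the line, Dusp1 closest to it at 218 and 230 TPM and Dusp7 farthest at 2.08 and 11.5 TPM.

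Most members were highest in the same library in TPM, and that was shared by other genes. Replicate 3 gave the highest TPM for 8 of the 9 members, all but Dusp4, and for 83.0% of the 13131 protein-coding genes above 0 TPM in every library. Replicate 3 had the lowest share of small nucleolar RNAs. After TPM was rescaled over protein-coding genes, replicate 3 was the highest for 2 of 9 members and for 46.1% of the coding genes, and replicate 1 for 5 members and 22.0% of the coding genes.

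The libraries differ in the labels by the amount of RNA they were made from, and each member was therefore tested for a slope on it. The values for this test are CPM further scaled by trimmed means of M values (TMM), and the fit (edgeR quasi-likelihood test) covered 15065 genes with 1 library per amount. It leaves 1 residual degree of freedom, so the scatter used for each gene was mostly borrowed from other genes. With no repeat library at any amount, the p-values do not rest on scatter between repeats. Dusp2 had 86.4, 151 and 233 CPM at 250, 500 and 1000 ng. Dusp4 had 20.7, 24.4 and 45.5 CPM, and both were thus highest at the largest amount. Dusp5 had 36.8, 28.0 and 22.8 CPM, highest at the smallest amount.

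The slope of Dusp2 was 0.72 ± 0.17 log2 units per doubling (SE), with an adjusted p of 0.0728 in edgeR after Benjamini-Hochberg adjustment over all genes. That of Dusp4 was 0.57 ± 0.16 (edgeR adjusted p = 0.199), with 0.22 when replicate 1 was left out and 0.90 when replicate 2 was, and that of Dusp5 was -0.35 ± 0.16 (edgeR adjusted p = 0.731). At an adjusted p below 0.05 the edgeR test called 0 of the 9 members. Without adjustment 3 of the 9 were below 0.05, as were 6.75% of all genes fitted, 1017 of 15065. Of all genes, 0.584% were called, 88 of 15065, with 0.551% rising and 0.0332% falling with the amount. DESeq2 called 1 member, Dusp2, at an adjusted p of 0.0214, and edgeR without a filter on low counts also called Dusp2, at 0.0118. Over 4 alternatives to the test, its adjusted p ran from 0.0118 to 0.0926, and its slope was positive in each. Dusp1, the highest member, had 323, 447 and 361 CPM at 250, 500 and 1000 ng and a slope of 0.08 ± 0.20. The other 5 members had slopes between -0.42 and 0.33, and the median slope was 0.12 for the members and 0.00 for all genes fitted.

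**Figure D5:**
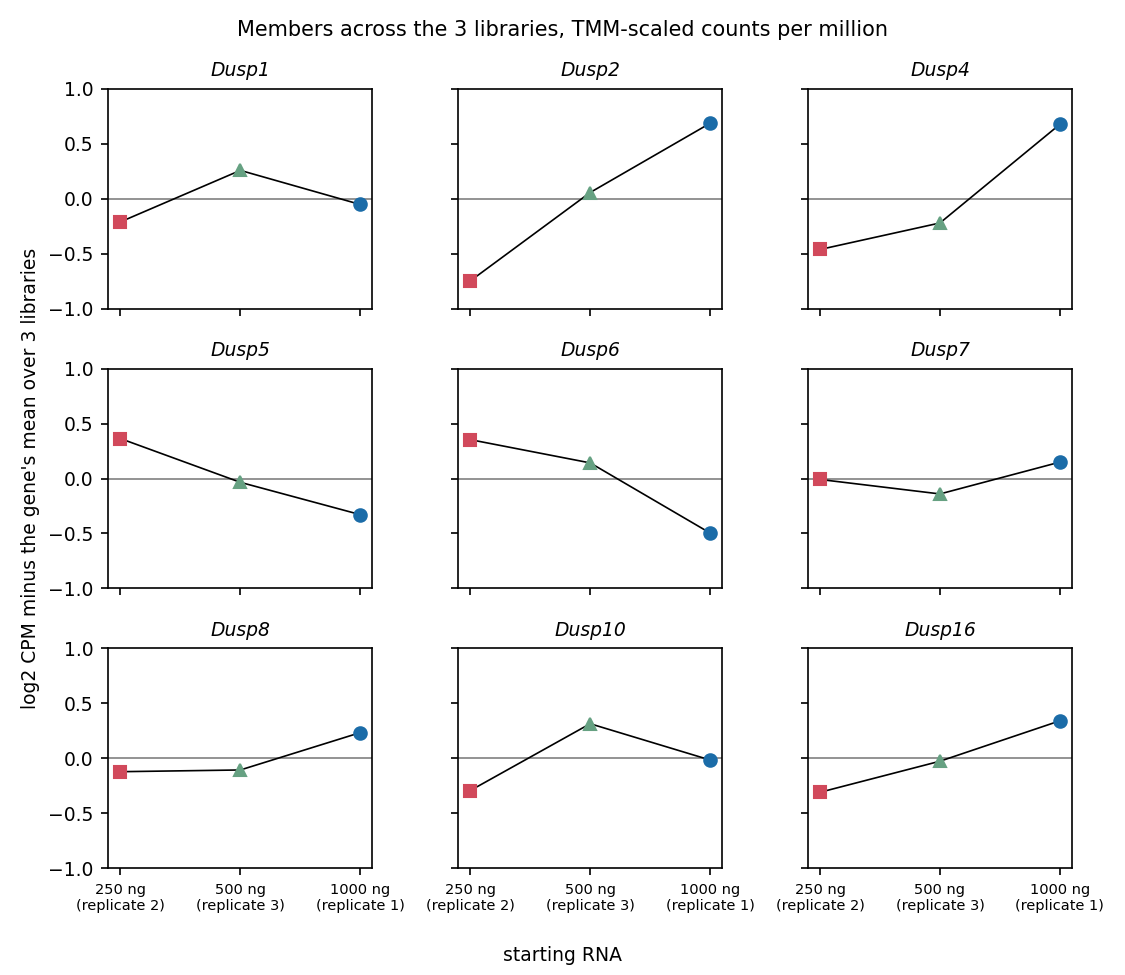
Log2 CPM (TMM-scaled) of each member minus its own mean over the libraries, against starting RNA in ng, with 1 library per amount. Dusp2, Dusp4, Dusp7, Dusp8 and Dusp16 are highest at 1000 ng, Dusp1 and Dusp10 at 500 ng, Dusp5 and Dusp6 at 250 ng, and none of the 9 slopes passed the edgeR test.

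The same values of the 3 libraries placed Dusp2 among the more variable genes, which is not a finding apart from its slope. Between replicates 1 and 2 it differed by 1.43 log2 units, at percentile 97.6 of all genes fitted, and Dusp4 by 1.14, at percentile 95.6. Dusp5 and Dusp6 went the other way, by -0.69 and -0.84, at percentiles 6.47 and 4.18. The biological coefficient of variation between the 3 libraries, edgeR's measure of scatter when no slope is fitted, was 0.313 for Dusp2 and 0.283 for Dusp4, against a median of 0.210 over all genes, and 0.198 for Dusp1. Which of starting amount, culture or library accounts for these differences cannot be told apart, with 1 library per amount.

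The rest of the pathway was read through lists taken from textbook knowledge, with earlier results of these data known. The kinases were present at every tier. Of the 11 MAP3 kinases and TAK1 partners, all reached 1 TPM in each of the libraries and their median was 27.3 ± 5.55 TPM. The highest was Map3k8, the kinase that feeds the ERK arm downstream of TLR4, at 56.6 ± 18.5 TPM (SD, n = 3 for each). Of the 7 MAP kinase kinases 6 were, with a median of 14.9 ± 2.79 TPM, led by Map2k2 at 33.3 ± 6.45 TPM. Of the 10 MAP kinases 6 were, with a median of 8.91 ± 4.39 TPM, led by Mapk14, which encodes p38 alpha, at 35.9 ± 3.90 TPM, while Mapk13 was at 0.120 ± 0.0529 TPM. All 10 MAPK-activated kinases were, with a median of 16.5 ± 1.22 TPM, led by Mknk1 at 111 ± 23.5 TPM. The mean TPM of Dusp1 was above that of every kinase of these 4 lists in both sets of tables. Dusp2 and Mknk1 overlapped in range, and Mknk1 had the higher mean in the kallisto tables, at 196 TPM, with Dusp2 at 165 TPM.

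The 9 members stood higher at the median than the atypical phosphatases and the other brakes on MAPK signalling, and lower than the immediate early genes. The 15 atypical dual-specificity phosphatases, which lack the MAP kinase-binding domain, had a median of 0.593 ± 0.193 TPM and 5 at or above 1 TPM in every library, led by Dusp11, an RNA phosphatase, at 37.7 ± 16.6 TPM, with Dusp26 listed at 0. The 13 other brakes on MAPK signalling, among them Sprouty and Spred genes, had a median of 0.727 ± 0.309 TPM and 6 at that level, led by Ppm1b at 17.5 ± 3.20 TPM, with Ptprr listed at 0 in the gene tables and at a mean of 7.93 TPM in the kallisto tables (SD, n = 3 for each). The 17 genes listed as immediate early genes that depend on MAP kinases had a median of 42.0 ± 17.3 TPM and 16 at that level. They ran from Fosl1 at 0.0267 ± 0.0306 TPM to Fos at 282 ± 165 TPM. The list includes Elk1, Elk4 and Jund, and dependence on MAP kinases was not tested here for any of its genes. In the edgeR test on starting RNA, 0 of the 70 genes of these 7 lists that were fitted passed in either direction, and 9 were below 0.05 without adjustment, 5 of them rising and 4 falling, beside the 6.75% of all genes given above.

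The genes whose course over the 3 libraries was most like that of Dusp1 were Manf, Gm37494 and Gm28229, which stayed within 0.00295, 0.00389 and 0.00806 log2 CPM of it at every library after centring. With 3 libraries this is a weak description, since 534 of the 8787 genes compared, those with mean counts from 100 up, stayed within 0.1, which is 6.08%.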

How the data were processed

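Ribosome-depleted RNA of 3 chromatin-fraction libraries was analysed. Reads were quantified against annotation M21 of mm10 (GRCm38), 1 library per file, per the file headers and text listings. Quantification tools, their versions and strand use: not given in the sources used here. The authors deposited expected counts and TPM per gene and transcript in a layout like that of RSEM, and estimated counts and TPM per transcript in a layout like that of kallisto. TPM, as deposited, is scaled over all entries of a file. A deposited pair of signal columns, the bounds of a credibility interval in TPM of unstated level, supports no result here. Reads are counted over annotated exons: intron reads enter only through isoforms that keep the intron, while exon reads of unspliced RNA are also assigned to spliced isoforms.

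Members were found by symbol; the members, lists and rules were chosen with earlier results of these data known. All 9 members, the highest and lowest gene of each list, and the 3 genes nearest to Dusp1 were named. Expected counts were rounded for edgeR 4.0.16 (R 4.3.3), with TMM, filterByExpr, a slope on log2 starting RNA and Benjamini-Hochberg adjustment over all genes; DESeq2 1.42.0 was an alternative. Levels are means ± SD of 3 libraries. Noncoding means retained_intron or processed_transcript. Promoters come from RefSeq (GRCm38.p6) and exon borders from GENCODE M21. Tested on simulated counts of 15065 genes for the slope on starting RNA, the fit made 0 calls without slopes and recovered 84% of slopes of 1 and 100% of slopes of 2 per doubling, with 10 other calls. Simulated slopes were placed only in genes above the median CPM, and every gene had the same biological coefficient of variation, 22.2%. That of Dusp2 and of Dusp4 was larger, and slopes as small as those of the members were not simulated. Recovery for the members is therefore not known. Alternatives were the kallisto tables, posterior mean TPM, rescaling over coding genes, limits of detection, pseudocounts, other scaling or no filter in the test, and each replicate left out; coding isoforms alone were added after the values were seen. Other tools were numpy 2.4.6, pandas 2.3.3, scipy 1.17.1 and matplotlib 3.10.9 under Python 3.11.15.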

Additional observations from a re-analysis of the deposited data

How the results depend on the processing

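The median of the 9 genes was 9.54 TPM in the kallisto tables, 15.2 TPM after rescaling over protein-coding genes and 5.66 TPM as a mean of log2 values transformed back, and 2.45 to 3.46 TPM with each replicate left out. The number of members at or above 1 TPM in every library was 6 to 7 with each replicate left out, 8 in the kallisto tables, after rescaling or at a limit of 0.5 TPM, and 4 at a limit of 2 TPM. The share of Dusp1 was 53.0% to 61.9% with each replicate left out. Of 36 pairs, 35 to 36 kept the order in those settings; Dusp4 was above Dusp5 without replicate 2, and Dusp7 was above Dusp16 in posterior mean TPM and the kallisto tables. With coding isoforms only, 33 pairs kept the order, and 34 in the kallisto tables. DESeq2 called 1 member for starting RNA, and edgeR without a filter called 1. With a replicate left out the slope has no residual degree of freedom and no test: that of Dusp2 was 0.63 to 0.79, that of Dusp4 0.22 to 0.90, and 4 slopes changed sign, to -0.31 for Dusp1 and -0.32 for Dusp10 without replicate 2, and to -0.15 for Dusp7 and just below 0 for Dusp8 without replicate 1. The noncoding share moved by more than its SD in 7 of 10 settings of other tables or counts. Dusp10 rests on 9 to 14 counts. No paired analysis was possible because there is 1 group. The cause of these changes was not tested.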
